A study of Mus musculus with 8 samples.

Results

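The miRNAs described here are 5 mature miRNAs that are best known from epithelial and sensory cells: mmu-miR-183-5p, mmu-miR-182-5p, mmu-miR-96-5p, mmu-miR-203-3p and mmu-miR-205-5p, written without the mouse prefix from here on. They were taken by name from the 1881 mouse miRNAs on the array, and all 5 names were found. Total RNA of whole kidney was measured on 8 single-colour Agilent arrays, 1 array a sample. There were 4 db/db samples, from mice labelled C57BLKS/J Iar -+Leprdb/+Leprdb. Homozygous loss of leptin receptor signalling makes such mice obese, with diabetes. The 4 control samples are labelled C57BLKS/J Iar -m+/m+ and m/m in some fields and dbm in the titles, so whether they carried a db allele was not settled. All mice were males aged 28 weeks. The db mutation is present in every cell, so the comparison is not one of a kidney-specific loss, and fewer cells of a type cannot be told apart from less of a miRNA per cell in such bulk tissue.

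MicroRNAs are short RNAs that pair, mainly through their seed at bases 2 to 8, with target mRNAs and lower their translation and stability. miR-183, miR-96 and miR-182 are cut from a common primary transcript that is high in hair cells, photoreceptors and other sensory cells, and seed mutations of miR-96 cause progressive hearing loss in mice and humans. miR-203 restrains the proliferative state of skin keratinocytes through p63, and miR-205 is typical of stratified and glandular epithelia, where it represses the ZEB factors together with the miR-200 family.

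The mature sequences follow because the seeds decide which members can share targets. They are RefSeq's, written 5′ to 3′ with the seed in capitals.
miR-183-5p: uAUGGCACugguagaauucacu
miR-182-5p: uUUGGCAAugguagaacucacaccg
miR-96-5p: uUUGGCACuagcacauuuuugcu
miR-203-3p: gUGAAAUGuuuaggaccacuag
miR-205-5p: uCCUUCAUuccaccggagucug
Of the 1679 mature mouse miRNAs in the RefSeq table, 1 other, miR-1271-5p, had the full seed of miR-96-5p; it was not analysed here. miR-96-5p and miR-182-5p had bases 2 to 7 in common and differed at the last seed base. The seed of miR-183-5p was matched by 0 others, even over bases 2 to 7, and so were those of miR-203-3p and miR-205-5p. miR-183-5p and miR-182-5p also had a run of 8 bases in common beyond their seeds, the longest between any 2 of the 5.

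On GRCm38.p6 the hairpins of the cluster lie on the minus strand of chromosome 6 within the long non-coding RNA gene Mirc35hg, between the protein-coding genes Nrf1 and Ube2h. Mature miR-183-5p is at chr6:30169711-30169732, miR-96-5p at chr6:30169506-30169528 and miR-182-5p at chr6:30165962-30165986. The Mir183 and Mir96 hairpins are 116 bases apart, Mir96 and Mir182 are 3453 bases apart, and the cluster spans 3820 bases. miR-203-3p is at chr12:112130927-112130948 on the plus strand, between Aspg and Kif26a. miR-205-5p is at chr1:193507503-193507524 on the minus strand, within the long non-coding RNA gene Mir205hg.

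Each member was read by 2 probes with 15 spots each, or 30 spots an array. The probes are shown because the signals below depend on them. The capital marks the base by which the longer probe of a member exceeds the shorter.
miR-183-5p, shorter probe: agtgaattctaccagtgc
miR-183-5p, longer probe: agtgaattctaccagtgcC
miR-182-5p, shorter probe: cggtgtgagttctac
miR-182-5p, longer probe: cggtgtgagttctacC
miR-96-5p, shorter probe: agcaaaaatgtgctagtgcca
miR-96-5p, longer probe: agcaaaaatgtgctagtgccaA
miR-203-3p, shorter probe: ctagtggtcctaaacat
miR-203-3p, longer probe: ctagtggtcctaaacatT
miR-205-5p, shorter probe: cagactccggtggaa
miR-205-5p, longer probe: cagactccggtggaaT
The longer miR-96-5p probe pairs with bases 2 to 23 and so with all 7 seed bases. Those of miR-182-5p pair with 0 seed bases, the longer one starting at base 10. No probe of a member matched more than 8 consecutive bases of another member. Cross-hybridisation was not tested.

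By the scanner software's detection call for each miRNA, the arrays gave 289 to 358 detected miRNAs in db/db and 305 to 352 in control kidneys. Arrays of the same group correlated at 0.989 to 0.997 across the log2 values of tested miRNAs, and arrays of different groups at 0.964 to 0.979. The 8 arrays shared a slide and a scan. The db/db samples filled slide row 2 and the controls row 1, so the row on the slide and the genotype cannot be told apart. Of 7 tubule miRNAs used to check the tissue, 6 were detected on all 8 arrays, as were all 5 listed members of the miR-200 family, which marks epithelium.

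Only miR-96-5p and miR-203-3p were clearly present in these kidneys. Both were detected on all 8 arrays, as were 14.3% of the 1881 miRNAs. miR-183-5p was detected on 0 of 4 db/db arrays and on 2 of 4 control arrays. miR-182-5p was detected on 0 db/db arrays and on 1 control array. miR-205-5p was detected on no array, as were 79.3% of all miRNAs. Detection in some controls and in no db/db kidney, the pattern of miR-183-5p and miR-182-5p, was found for 1.22% of all miRNAs, and the opposite pattern for 1.54%. Detection in whole kidney does not show which cells a miRNA came from, so the epithelial label of the set was not tested here.

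The other arms of the hairpins were below detection as well. miR-183-3p, miR-182-3p, miR-96-3p, miR-203-5p and miR-205-3p were detected on 0 of 8 arrays. miR-203b was not analysed here.

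miR-96-5p, which is known to target FOXO transcription factors and genes of hair cell maturation, was lower in db/db kidneys. Its scaled signal, which is the processed spot signal divided by an array factor and has no unit, was 41.6, 40.1, 33.6 and 33.7 in db/db replicates 1 to 4, against 38.7, 52.4, 48.8 and 56.4 in control replicates 1 to 4. Control replicate 1 lay below db/db replicates 1 and 2, so the groups overlapped, while the other 3 controls lay above every db/db sample. On the log2 scale the mean was 5.21 ± 0.16 in db/db kidneys and 5.60 ± 0.24 in control kidneys (SD, n = 4 each). The change was -0.39 ± 0.13 (SE), or 1.31-fold lower, with a 95% interval from -0.69 to -0.094, and it was called lower (adjusted p = 0.0411 in limma after Benjamini-Hochberg adjustment, called below 0.05). Of the 316 miRNAs tested, 41.8% passed in either direction and 17.4% passed as lower, so a call as such does not set miR-96-5p apart. A decrease of at least this size was seen for 12.3% of them, and a change of at least this size in either direction for 24.1%. Complete separation of the groups, which neither tested member had, was found for 41.5% of tested miRNAs and, with db/db lower, for 16.8%. The median change of all tested miRNAs was -0.024.

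The call of miR-96-5p was marginal. It was lost when any of 6 of the 8 arrays was left out, namely replicates 2, 3 and 4 of either group, with adjusted p up to 0.104 in limma. Without control replicate 1, the low control, the change was -0.50 with adjusted p = 0.00585 in the same fit. The change stayed below 0 in all 34 alternatives, between -0.50 and -0.20, and the call held in 16 of them.

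**Figure D1:**
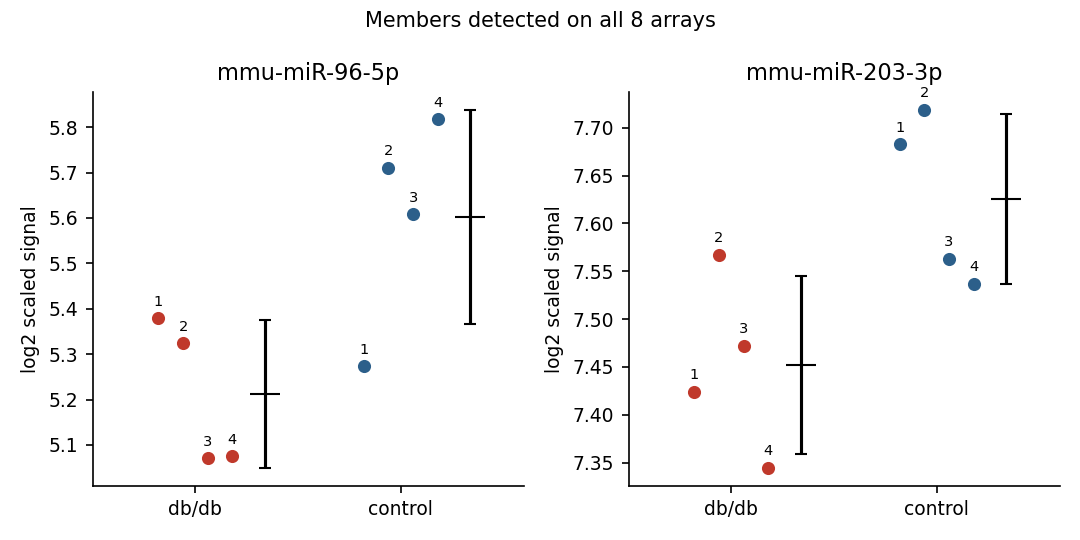
Log2 scaled signal of miR-96-5p and miR-203-3p on each array, with replicate numbers beside the points, db/db left of control; the bars give mean and SD (n = 4 each), and each panel has its own axis, which does not start at 0. For miR-96-5p control replicate 1 sits below db/db replicates 1 and 2, and for miR-203-3p db/db replicate 2 sits above control replicates 3 and 4.

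Both probes of miR-96-5p gave the same direction. The longer probe averaged 42.6 in db/db and 57.4 in control kidneys, a log2 difference of -0.42. The shorter probe averaged 31.8 in db/db and 40.7 in control kidneys, a difference of -0.35. For each, the lowest control fell within the range of the db/db arrays. On the arrays 116 of 120 spots were well above background in db/db kidneys and 120 of 120 in control kidneys. The coefficient of variation among the 15 spots of a probe was 12.6% at the median, from 8.85% to 23.6% over both probes and all arrays. Between arrays the coefficient of variation of the miR-96-5p signal was 11.3% among db/db and 15.5% among control kidneys.

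miR-203-3p, the skin miRNA that restrains p63, had a smaller difference that did not pass the threshold. Its scaled signal was 172, 189.7, 178 and 163 in db/db replicates 1 to 4, against 205, 211, 189 and 186 in control replicates 1 to 4. Only db/db replicate 2 reached into the range of the controls, where it lay just above replicates 3 and 4. The log2 mean was 7.45 ± 0.093 in db/db kidneys and 7.63 ± 0.089 in control kidneys (SD, n = 4 each). The change was -0.17 ± 0.064 (SE) with a 95% interval from -0.32 to -0.025 (adjusted p = 0.0603 in limma after Benjamini-Hochberg adjustment). A decrease of at least this size was seen for 25% of tested miRNAs. The interval is not adjusted for multiple tests.

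The size and sign of the miR-203-3p difference depended on how arrays were scaled. Before scaling, its processed signal was 189.5, 187, 188 and 168 in db/db replicates 1 to 4, against 181, 199.5, 180.4 and 196 in control replicates 1 to 4. These unscaled values overlapped widely. The array factors were 0.988 to 1.10 for db/db and 0.879 to 1.06 for control arrays. With scaling to labelling spike-ins, which are RNAs added before labelling, the change was 0.014, and the median tested miRNA changed by 0.16. With no scaling the change was -0.046 and the median miRNA changed by 0.10. A factor for a whole array shifts every miRNA on it alike, so the change less that of the median tested miRNA is the same by construction under these scalings. It was -0.15 for miR-203-3p and -0.37 for miR-96-5p.

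The 2 probes of miR-203-3p differed in whether the groups overlapped. The longer probe ranged from 207 to 246 in db/db and from 238 to 272 in control kidneys. The shorter probe ranged from 118 to 133 in db/db and from 134 to 156 in control kidneys and did not overlap. As a single-probe pattern of lower values, that was found for 3.81% of the 4415 probes. Those include the probes of the 79.3% of miRNAs that were detected on no array. Among tested miRNAs, 16.8% had groups that did not overlap, with db/db lower. The log2 differences were -0.16 for the longer and -0.19 for the shorter probe. The coefficient of variation among the 15 spots of a probe was 4.76% at the median, and the signal varied by 6.48% among db/db and 6.15% among control kidneys.

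miR-183-5p, for which the cluster is named, stayed near the background. Its scaled signal was 6.12, 8.03, 7.75 and 5.46 in db/db replicates 1 to 4, against 5.43, 9.73, 7.53 and 9.29 in control replicates 1 to 4. The groups overlapped, and the 2 control arrays on which it was called detected, replicates 2 and 4, were the highest. In db/db kidneys 1 of 120 spots was well above background, and in control kidneys 4 of 120 were. The negative control spots of the same arrays had medians of 4.90 to 5.78 in db/db and 5.19 to 7.22 in control kidneys. The miR-183-5p signal, a mean of 30 spots, exceeded 56.0% to 80.3% of single negative control spots on db/db arrays and 46.4% to 88.5% on control arrays. The member did not meet the detection rule and was not tested. From these signals a change is given only in fits with a relaxed rule, further below.

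miR-182-5p, the cluster member with bases 2 to 7 in common with miR-96-5p, lay at or below the background. Its scaled signal was 2.90, 2.46, 0.978 and -0.207 in db/db replicates 1 to 4, against 3.51, 5.38, 2.91 and 5.61 in control replicates 1 to 4. All db/db values lay below all control values, by a narrow margin between db/db replicate 1 and control replicate 3, and 3 of the db/db values lay under the floor of 2.80. Among the tested miRNAs, all of which met the detection rule, 16.8% had all db/db values below all control values. The share among miRNAs as dim as miR-182-5p was not computed. With detection on 1 control array, miR-182-5p did not meet the detection rule and was not tested.

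The separation of miR-182-5p came from 1 of its probes, the one longer by a single cytosine. The longer probe read 6.34, 7.38, 5.75 and 2.55 in db/db replicates 1 to 4, against 9.11, 11.6, 8.62 and 11.3 in control replicates 1 to 4, with no overlap, the single-probe pattern found for 3.81% of all probes. The shorter probe was below 0 on every array, from -3.79 to -0.540 in db/db and from -2.80 to -0.0641 in control kidneys, with overlap. The 95th percentile of single negative control spots was 10.1 to 13.2 on db/db and 10.7 to 15.1 on control arrays, and the longer probe's mean exceeded it only on control replicate 4. Only 2 of its spots were well above background, both on control replicate 4.

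miR-205-5p gave no signal above background in either group. Its scaled signal ran from -2.77 to 0.0547 in db/db kidneys and from -2.39 to -0.999 in control kidneys, with overlap. It exceeded at most 4.55% of negative control spots on any array. Of 120 spots, 1 was well above background in db/db kidneys and 0 were in control kidneys. At the sensitivity of these arrays no level of miR-205-5p can be given for kidney, and no fold was computed.

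**Figure D2:**
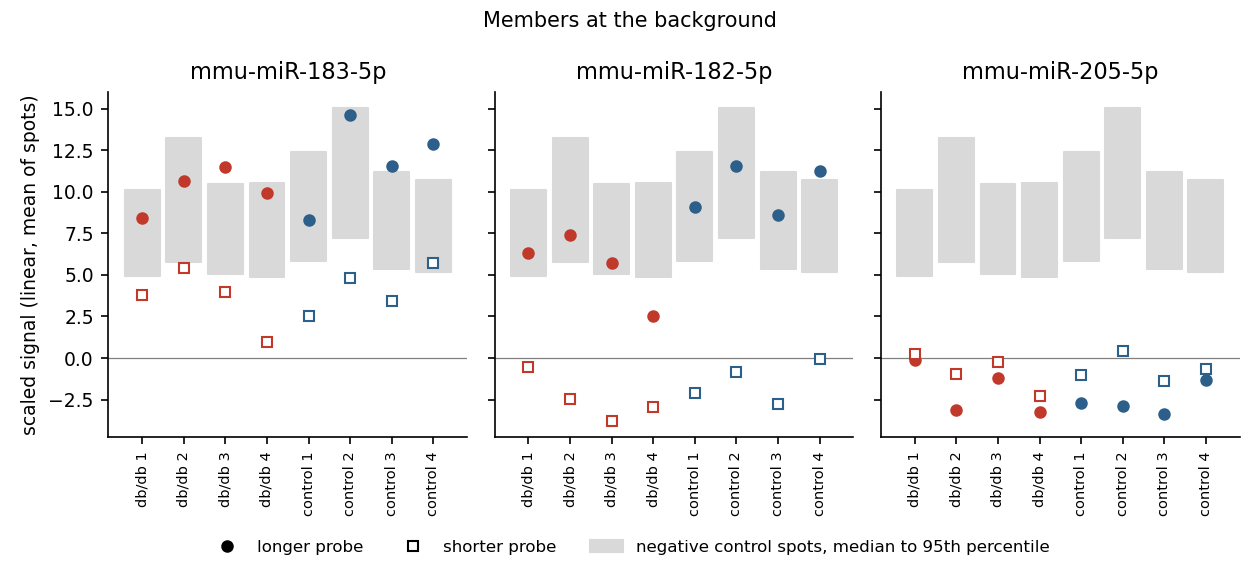
Scaled signal (linear) of the longer probe (filled circles) and shorter probe (open squares) of miR-183-5p, miR-182-5p and miR-205-5p on each array, db/db arrays left of control arrays; grey boxes span the median to the 95th percentile of the negative control spots of that array. The longer miR-182-5p probe lies between 2.55 and 7.38 on db/db arrays and between 8.62 and 11.6 on control arrays, while miR-205-5p lies below the boxes on every array.

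The dim members can also be fitted when the detection rule is relaxed. With all 390 miRNAs detected on at least 1 array in the fit, the change of miR-183-5p was -0.21 ± 0.21 (SE), with an adjusted p of 0.473 in limma after Benjamini-Hochberg adjustment. That of miR-182-5p was -0.57 ± 0.21 (SE; same fit, adjusted p = 0.0684), with 3 db/db arrays at the floor. The floor made those values equal (SD 0.026 in db/db, 0.47 in control), so this SE and p do not measure replicate spread. Both members entered this fit by detection on control arrays only, which can favour a decrease. With all mouse miRNAs on the array fitted, their changes were the same, at adjusted p = 0.449 for miR-183-5p and 0.394 for miR-182-5p in limma. Neither member passed the threshold in either fit. In the fit of 390 miRNAs, miR-96-5p did not pass either (limma, adjusted p = 0.0525).

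The authors' deposited value table gives a different picture for the dim members. Its ratio for miR-183-5p was 0.816 to 0.958 on db/db arrays, against 1.05, 30.9, 1.04 and 26.9 in control replicates 1 to 4. For miR-182-5p it was again 0.816 to 0.958 on db/db arrays, against 1.05, 1.05, 1.04 and 23.6 in control replicates 1 to 4. The high ratios fell on the arrays with a detection call. There the scanner files gave a total gene signal of 2.94 and 2.88 for miR-183-5p and of 2.52 for miR-182-5p, while every undetected array held a fill of 0.1. The log2 change of the table was -2.61 for miR-183-5p and -1.34 for miR-182-5p, far larger than the values from spot signals above. The ratio of miR-205-5p equalled the median of each column, since it held the fill on every array. For miR-96-5p and miR-203-3p, detected throughout, the table gave -0.44 and -0.22, close to the spot signals.

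On a list of other epithelial miRNAs chosen for comparison, 2 members of the miR-200 family rose. Of 7 listed, 5 were tested, and 2 rose and 0 fell, against 24.4% higher and 17.4% lower among all tested miRNAs; the list's median change was 0.099. Over the alternatives the number higher ran from 0, with scaling to the 75th percentile over all miRNAs, to 5, with spike-in scaling. The number lower was 0 or 1, and the median ran from -0.047, with the first probe of each miRNA, to 0.29, with spike-in scaling. The log2 change was 0.42 ± 0.076 (SE) for miR-200c-3p and 0.36 ± 0.073 (SE) for its cluster neighbour miR-141-3p. The changes of miR-429-3p and miR-200b-3p were 0.099 and 0.070 and did not pass, and both turned negative with quantile normalization. Of the listed miRNAs that were not tested, miR-31-5p was detected on 2 db/db arrays and 1 control array and miR-375-3p on none. Of 7 tubule miRNAs, 6 were tested, and 4 rose and 0 fell, with a median of 0.19: miR-204-5p by 1.05 ± 0.041 (SE), miR-10b-5p by 0.27, miR-10a-5p by 0.21 and miR-30a-5p by 0.17. Over the alternatives the number of tubule miRNAs higher ran from 1 to 6, the number lower was 0 or 1, and the median ran from 0.025 to 0.37. miR-204-5p kept its call in all 34 alternatives, miR-10b-5p in 31, miR-30a-5p in 27 and miR-10a-5p in 20. The call of miR-10a-5p was lost without db/db replicate 1 or 4, at adjusted p = 0.0505 and 0.0574 in limma. The difference between these changes and that of miR-96-5p was not tested.

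**Figure D3:**
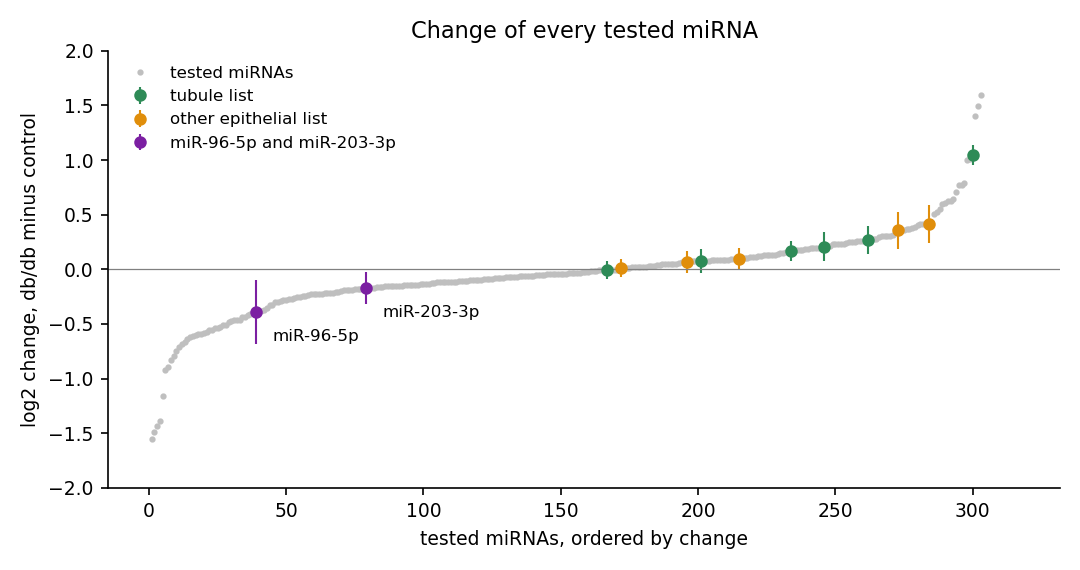
Log2 change (db/db minus control) of the 316 tested miRNAs in order of size, with 95% intervals for miR-96-5p and miR-203-3p, the other epithelial list and the tubule list; 13 miRNAs above 2 lie outside the plotted range. The 2 members lie on the negative side at -0.39 and -0.17, and the tested miRNAs of both lists lie near or above 0.

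Markers of some other cell types moved with the genotype as well. Among all tested miRNAs, 17.4% were called lower and 24.4% higher, and 41.5% had groups that did not overlap. The 6 leukocyte miRNAs summed to a scaled signal of 254 to 365 in db/db and 602 to 776 in control kidneys, and 5 of them fell. The hepatocyte miRNA miR-122-5p had a scaled signal of 50.2 to 133 in db/db kidneys and was at the floor of 2.80 in all control kidneys. The erythroid sum ranged from 646 to 3564 in db/db and from 703 to 3058 in control kidneys, and neither of its 2 miRNAs passed. The endothelial sum was 3648 to 3807 in db/db and 3913 to 4194 in control kidneys, with 0 of 2 miRNAs past the threshold. The striated muscle sum was 26.5 to 35.5 in db/db and 21.3 to 28.6 in control kidneys, and its 1 tested miRNA of 3, miR-1a-3p, rose by 0.37 on the log2 scale (limma, adjusted p = 0.0448), while miR-133a-3p and miR-206-3p were detected on no array. The smooth muscle sum was 452 to 508 in db/db and 452 to 519 in control kidneys, and 0 of 2 miRNAs passed. Their part in the miR-96-5p difference was not tested.

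Across the 8 arrays, with each group's mean subtracted, the Pearson r between miR-96-5p and miR-203-3p was -0.072. Among the 315 other tested miRNAs, those most like miR-96-5p by this measure were miR-34c-5p (r = 0.979), miR-362-3p (r = 0.975) and miR-200b-5p (r = 0.971). Those most like miR-203-3p were miR-6769b-3p (r = 0.957), miR-7666-5p (r = 0.938) and miR-5620-3p (r = 0.932). These are the highest of many correlations over 8 arrays that share their scaling. Of these 6, miR-34c-5p and miR-362-3p were higher in db/db kidneys, with log2 changes of 0.38 and 0.18, both past the threshold, at adjusted p = 0.0132 and 0.0146 in the limma fit.

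**Figure D4:**
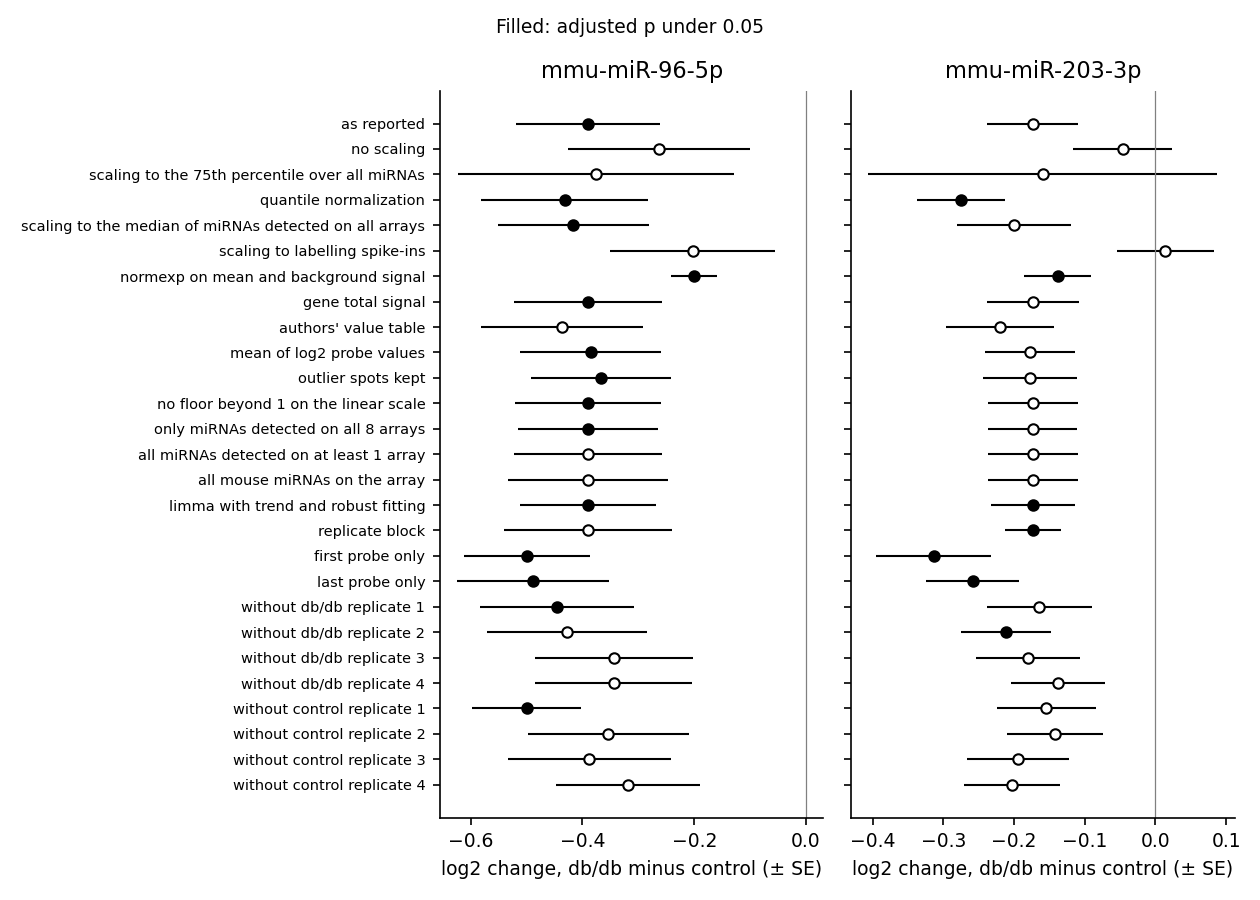
Log2 change (db/db minus control) with SE for miR-96-5p and miR-203-3p under the processing reported here and its alternatives. The alternatives with scaling and filter redone are not plotted. Filled points have an adjusted p under 0.05 in limma. All points of miR-96-5p lie below 0, and the miR-203-3p point with scaling to labelling spike-ins lies at 0.014.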

How the data were processed

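Spot intensity was deposited as scanner output of Agilent Feature Extraction, version 12.0.3.1 by the submitters' processing notes and the headers. Spatial detrending was on and background correction was off, per the file headers. The authors also deposited 1 linear ratio per miRNA and array. The sources used here do not give the choice of its array factors, and it served only as an alternative.

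The processed signal was averaged over the non-outlier spots of each probe, then over a miRNA's probes. Arrays were scaled to their 75th percentile, taken over the 269 miRNAs that all 8 arrays detected. Signals under a floor of 2.80 were set to it before log2 was taken. The 316 miRNAs detected on all 4 arrays of a group were fitted with limma 3.58.1 in R 4.3.3, with data.table, version 1.17.8, for file handling. Calls were made at a 2-sided adjusted p under 0.05 after Benjamini-Hochberg adjustment over all 316. The limma fit was tested on simulated log2 values. The averaging, scaling, floor and detection rule were not part of that test.

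The members, lists and rules for named miRNAs were chosen with earlier results of these data known. Named were the 5 members, the other arms of their hairpins, up to 4 miRNAs of an epithelial and of a tubule list with called ones first, and the 3 tested miRNAs closest in pattern to each tested member. A planned test between members of the miR-183 cluster had 0 pairs with both members tested. Sequences and positions are RefSeq's (GRCm38.p6). The labels do not say that each sample came from its own animal, so a p-value reflects only how much these samples varied, which may be technical. The number of arrays limits the precision.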

Additional observations from a re-analysis of the deposited data

How the results depend on the processing

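The count of 132 called miRNAs fell to 34 with scaling to the 75th percentile over all 1881 miRNAs, most of which are at background, and was 113 to 153 when an array was left out. The decrease of miR-96-5p kept its direction in all 34 alternatives and its call in 16. Its change, no longer past the threshold, was -0.38 with that percentile, -0.26 with no scaling, -0.20 with scaling to labelling spike-ins and -0.44 in the authors' value table. It was an unaltered -0.39, with adjusted p = 0.0525 in limma, when all miRNAs detected on at least 1 array were fitted, and -0.39, with adjusted p = 0.350, when all miRNAs were fitted. Leaving out an array gave -0.50 to -0.32; with scaling and filter redone, a step added after seeing the data, the call was lost at -0.36 without control replicate 2, -0.40 without control replicate 3, -0.32 without control replicate 4 and -0.34 without db/db replicate 3 or 4. The difference of miR-203-3p turned to 0.014 with spike-in scaling. It passed the threshold in 8 of 34 alternatives. Among them were -0.28 with quantile normalization, -0.14 with normexp on mean and background signals and -0.17 with trend and robust fitting. It also passed at -0.17 with same-numbered samples as a block, described below. With the first probe of every miRNA it passed at -0.31 and with the last at -0.26 (both chosen after seeing the data). Without db/db replicate 2 it passed at -0.21, or at -0.27 with scaling and filter redone. With the first and the last probe the median tested miRNA itself changed by -0.16 and -0.070. Less that median, miR-203-3p changed by -0.16 and -0.19, against -0.15 in the fit reported above. Leaving out an array gave -0.27 to -0.14 for miR-203-3p. The cause of these shifts was not tested. Beside the changes of the tested members, miR-200b-3p turned to -0.12 with the first probe, -0.11 with quantile normalization and -0.0055 without db/db replicate 2 with scaling and filter redone, and miR-429-3p to -0.047 and -0.021 with the first probe and quantile normalization. The share of higher among called miRNAs was 58.3%; it was 78.1% with no scaling, 83.5% with spike-in scaling, 46.9% with quantile normalization, 67.6% with the percentile over all miRNAs, 45.1% without db/db replicate 2 with scaling and filter redone, 72.2% with all miRNAs fitted, 29.5% with the first and 41.5% with the last probe.

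Same-numbered samples of the groups were not paired, since the correlations of their deviations were -0.43, 0.41, -0.046 and -0.075 for numbers 1 to 4, and 2 of 8 samples correlated best with their own number. With the replicate block the count of called miRNAs was 144, miR-96-5p at -0.39 lost its call (limma, adjusted p = 0.0930) and miR-203-3p at -0.17 gained one (limma, adjusted p = 0.0275). Signal near background limits miR-183-5p, miR-182-5p and miR-205-5p: the first 2 could be fitted only under a relaxed detection rule, and no change is given for miR-205-5p.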
